A study of Mus musculus with 6 samples.

Results

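The miR-181 family of microRNAs was examined in small RNA libraries of round spermatids, haploid male germ cells, purified from testes of mice with and without MIWI. The members were selected by name, as every miRNA entry of the small RNA count table called mmu-miR-181a, b, c or d, whichever arm or locus. They are 10 of the 1900 miRNA entries and of the 45932 entries in all. Of these, 4 are 5p arms (mmu-miR-181a-5p, mmu-miR-181b-5p, mmu-miR-181c-5p and mmu-miR-181d-5p) and the others are 3p arms. The family itself was picked on its levels in these same libraries, scaled to the miRNA total of each. The differences between genotypes below are therefore a description. No p-value is printed for a member, and where members past a threshold are counted, the count is no test of the family.

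The genotypes are a Miwi knockout (KO) and the wild type (WT), with 3 libraries each, all from C57BL/6 testes at postnatal day 21. MIWI (PIWIL1) is a PIWI protein that carries pachytene piRNAs. The KO is global, in a line recovered from frozen sperm. Its germ cells develop no further than early round spermatids, per the series' design text, and the step of the WT round spermatids is not given in the labels. The labels number the libraries within a genotype and do not say that a number is an animal, so any p-value covers library-to-library spread alone, and that spread may be technical. In such bulk samples, fewer cells of a type and less RNA per cell cannot be told apart.

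A microRNA is cut by DICER from a hairpin precursor whose arms give a 5p and a 3p product. As a rule, 1 arm is loaded into an Argonaute protein and the other is degraded. The loaded strand finds its targets mainly through its seed, bases 2 to 8 from the 5′ end, so miRNAs with the same seed share most predicted targets. The miR-181 family is best known from lymphocytes, where miR-181a tunes the sensitivity of the T cell receptor during thymic development.

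The 5p arms are shown to compare their shared seed, in capitals, with the bases by which they differ (RefSeq mature sequences, build GRCm38.p6, 5′ to 3′).
mmu-miR-181a-5p: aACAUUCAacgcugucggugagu
mmu-miR-181c-5p: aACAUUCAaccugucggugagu
mmu-miR-181b-5p: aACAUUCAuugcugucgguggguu
mmu-miR-181d-5p: aACAUUCAuuguugucggugggu

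All 4 carry the seed ACAUUCA, and among the 1679 mature mouse miRNAs of the RefSeq table no other carries it. Counted from the 5′ end, and with the base of miR-181a-5p first, miR-181b-5p differs by A9U, C10U and A21G and is 1 base longer at its 3′ end. With the base of miR-181b-5p first, miR-181d-5p differs by C12U and lacks that last base. The arm of miR-181c is 1 base shorter than miR-181a-5p and has the same 10 bases from the 5′ end and the same 12 from the 3′ end. Reads that differ by so little could have been assigned to either entry. The counting command in the file headers sets no option for reads with several matches, and what the aligner did with them is not stated in the labels or headers. The split of counts within the pair of miR-181a and miR-181c, and within the pair of miR-181b and miR-181d, is therefore less certain than the sum of the 5p arms. Reads with several matches may also have been left out of the counts, in which case the sum itself is too low.

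The 3p arms of miR-181a are shown because, unlike its 5p arm, they name the locus, and miR-181c-3p is shown beside them. Seeds are again in capitals.
mmu-miR-181a-1-3p: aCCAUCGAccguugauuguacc
mmu-miR-181a-2-3p: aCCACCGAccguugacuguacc
mmu-miR-181c-3p: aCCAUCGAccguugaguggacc

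With the base of miR-181a-1-3p first, miR-181a-2-3p differs by U5C and U16C, and miR-181c-3p differs by U16G and U19G. The miR-181a-1 and miR-181c products thus share a seed, CCAUCGA, and the miR-181a-2 product has the seed CCACCGA.

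The family comes from 6 hairpin genes in 3 pairs (GRCm38, annotated with GENCODE M21). Mir181a-1 (chr1:137966455-137966541, plus strand) and Mir181b-1 (chr1:137966639-137966718, plus strand) lie 97 bases apart, in an exon of the lincRNA A430106G13Rik. Mir181a-2 (chr2:38852735-38852810, plus strand) and Mir181b-2 (chr2:38853830-38853918, plus strand) lie 1019 bases apart, within an intron of Nr6a1 and on the opposite strand. Nr6a1 encodes germ cell nuclear factor, an orphan nuclear receptor of developing germ cells. Mir181d (chr8:84178716-84178787, minus strand) and Mir181c (chr8:84178873-84178961, minus strand) lie 85 bases apart, within an intron of an annotated transcript of Nanos3 on the same strand. Nanos3 encodes an RNA-binding protein that germ cell precursors need. The mature arms of miR-181a-5p and of miR-181b-5p are identical between their loci, so their counts cannot be assigned to chromosome 1 or chromosome 2. A second deposited table, of 9924085 entries in piRNA clusters, held 0 entries at the GRCm38 positions of these 6 hairpins. The nearest of those clusters lay between 123101 and 56877843 bases from a hairpin. The absence thus follows from the bounds of the clusters and says nothing of reads at the hairpins.

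Depth sets how much can be said of this family. Small RNA table totals ranged from 747443 to 1335013 counts in KO and from 3114845 to 5037232 in WT, but miRNAs made up 18.1% to 19.6% of the KO tables and 4.88% to 5.96% of the WT tables. The miRNA totals were therefore alike, from 146487 to 243655 in KO and from 179761 to 246030 in WT. Levels below are in CPM, the counts of an entry scaled to a miRNA total of 1e+06 in its library. The members are 21 to 24 bases long in RefSeq, so levels were compared with no correction for length. The 10 entries held 1020 counts over the 6 libraries, 919 of them on the 5p arms. The labelled germ cell origin was checked on 6 arms of miR-34b, miR-34c and miR-449, which are abundant in meiotic and postmeiotic germ cells. Their summed level was between 314711 and 354711 CPM in KO and between 284559 and 304718 in WT, with 0 of the 6 at zero. These arms do not tell postmeiotic from meiotic cells, so the round spermatid label itself was not checked.

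As a whole, miR-181 was a minor family in these cells, and its 5p arms took a smaller share of the miRNAs in KO than in WT. The summed 5p arms were at 596, 621 and 554 CPM in KO replicates 1 to 3, from 140, 91 and 135 counts. In WT replicates 1 to 3 they were at 885, 755 and 999.9 CPM, from 159, 148 and 246 counts. Every KO library lay below every WT library. The exact (Clopper-Pearson) 95% intervals, which cover counting error only, ran from 500.2 to 763 in the highest KO library and from 638 to 887 in the lowest WT library, so these intervals overlapped and counting error alone could give the gap between these neighbouring libraries.

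The 5p sum averaged 591 ± 34.0 CPM in KO against 879.8 ± 123 for the WT libraries (SD, n = 3), and was thus 1.49-fold lower. The fitted log2 difference between KO and WT was -0.58 ± 0.20 (SE). Counting alone would give an SD of 54.5 CPM in KO and 66.1 in WT, so the KO libraries varied by less than counting noise and the WT libraries by more. Among all 327 miRNAs tested the median log2 difference was -0.12 and the middle 50% lay between -0.42 and 0.15, and 48 of them had a difference lower than that of the 5p sum. At a mean of 735 CPM over all libraries, the summed 5p arms stood below miR-101c (741), miR-25-3p (751) and miR-467c-5p (774) and above miR-466g (690.2), miR-1195 (661) and miR-203-3p (641).

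**Figure D1:**
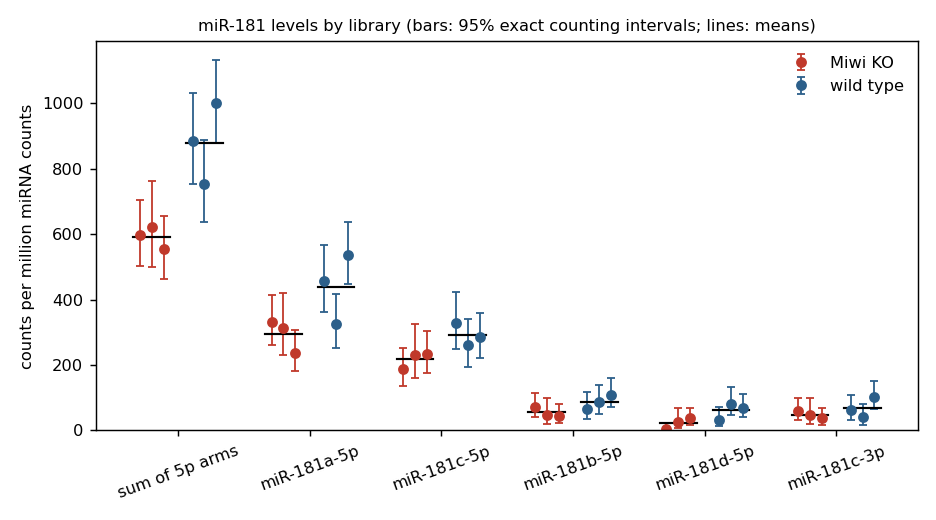
Levels of the summed 5p arms, of each 5p arm and of miR-181c-3p, in CPM of miRNA counts (vertical axis from 0), for each KO library (red) and WT library (blue); bars are 95% exact counting intervals and black lines are means. The 3 KO points of the 5p sum, between 554 and 621, lie below the 3 WT points, between 755 and 999.9, while most single arms overlap.

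The direction depends on what the counts are scaled to. Scaled to the miRNA total, the 5p sum was lower in KO, and scaled to the whole small RNA table, of which miRNAs were a smaller share in WT, it was higher. With TMM factors of the whole table its log2 difference was 1.45, while the median miRNA stood at 1.90. The distance between the 5p sum and the median miRNA was -0.46 with miRNA totals and -0.45 with whole-table TMM factors. A change of scale moves every miRNA by nearly the same amount, so this distance is nearly fixed in advance. Its likeness between scales is no second support. The choice between these scales moved the median of all 26032 RNAs tested from -2.29 to -0.27.

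**Figure D2:**
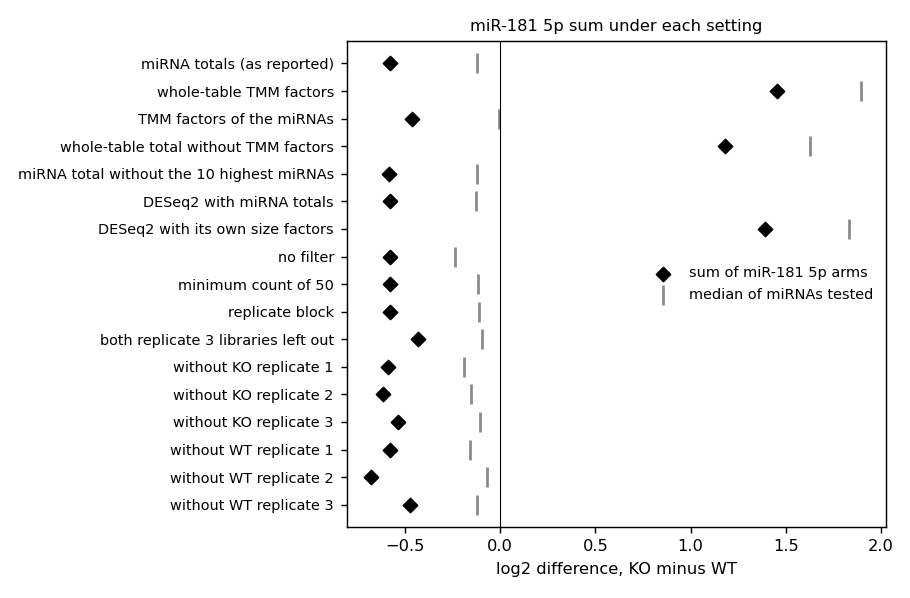
Log2 difference of the summed 5p arms between KO and WT (diamonds) and the median over all miRNAs tested (grey ticks), under each scaling, tool, filter and set of libraries. With miRNA-based scalings the diamonds lie between -0.68 and -0.43, with whole-table scalings between 1.18 and 1.45. In every setting shown they are to the left of the grey tick, at a distance that a change of scale alone hardly moves.

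Among the 5p arms, miR-181a-5p was the most abundant, and it ranked 152nd of the 1900 miRNA entries. Only 1221 of these entries had a count in any library. It was at 332, 314 and 238 CPM in KO replicates 1 to 3, from 78, 46 and 58 counts. In WT replicates 1 to 3 it was at 456, 326 and 537, from 82, 64 and 132 counts. WT replicates 1 and 3 were above all KO libraries, and WT replicate 2 lay within the KO range, so the genotypes overlapped. The means were 295 ± 49.98 in KO and 440 ± 106 in WT (SD, n = 3), and the fitted log2 difference was -0.59 ± 0.24 (SE). Without WT replicate 3, the highest library, the difference was -0.41, and without both replicate 3 libraries it was -0.26.

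The arm of miR-181c came next, at rank 184. In KO replicates 1 to 3 it was at 187, 232 and 234 CPM, from 44, 34 and 57 counts. In WT it was at 328, 260 and 285, from 59, 51 and 70 counts. The genotypes did not overlap, though the gap between the highest KO and the lowest WT library was small beside their counting intervals (177 to 303 and 194 to 342). The means were 218 ± 26.3 in KO and 291 ± 34.5 in WT (SD, n = 3), with a fitted log2 difference of -0.42 ± 0.25 (SE).

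Levels of miR-181b-5p, at rank 280, were several-fold lower. It was at 72.4, 47.8 and 45.1 CPM in KO, from 17, 7 and 11 counts. In WT it was at 66.8, 86.7 and 109.7 CPM, from 12, 17 and 27 counts. KO replicate 1 lay above WT replicate 1, so the genotypes overlapped. The fitted log2 difference was -0.67 ± 0.39 (SE), and -0.30 without both replicate 3 libraries.

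The rarest 5p arm was miR-181d-5p, at rank 333. The KO libraries held 1, 4 and 9 of its counts (4.26, 27.3 and 36.9 CPM). The WT libraries held 6, 16 and 17 (33.4, 81.6 and 69.1 CPM). KO replicate 3 and WT replicate 1 overlapped. The arm was below the count filter and was not fitted with the others. Fitted without a filter, its log2 difference was -1.45 ± 0.52 (SE), and the single count of KO replicate 1 has an exact 95% interval of 0.108 to 23.7 CPM.

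The order miR-181a-5p, miR-181c-5p, miR-181b-5p, miR-181d-5p held in 6 of 6 libraries. Over libraries, the ranges of miR-181a-5p (238 to 537 CPM) and miR-181c-5p (187 to 328) overlapped, as did those of miR-181b-5p (45.1 to 109.7) and miR-181d-5p (4.26 to 81.6). The ranges of miR-181c-5p and miR-181b-5p did not.

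The 5p counts were mostly miR-181a-5p and miR-181c-5p in both genotypes. The share of miR-181a-5p was 49.7% ± 6.41 in KO and 49.5% ± 5.51 in WT, and that of miR-181c-5p was 37.0% ± 5.41 and 33.3% ± 4.43 (SD, n = 3). The share of miR-181b-5p was 9.33% ± 2.45 in KO and 10.003% ± 2.14 in WT. The share of miR-181d-5p was 3.93% ± 3.00 in KO and 7.16% ± 3.53 in WT (SD, n = 3). Each of these 4 shares differed between the means by less than the larger SD of the genotypes.

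Pooling each pair of near-identical 5p arms removes the uncertain split between them. The sum of miR-181a-5p and miR-181c-5p was 513 ± 37.6 CPM in KO and 731 ± 126 in WT (SD, n = 3), a 1.43-fold difference. The sum of miR-181b-5p and miR-181d-5p was 78.0 ± 3.67 in KO and 149 ± 42.7 in WT (SD, n = 3), a 1.91-fold difference. Neither sum overlapped between genotypes. The KO libraries of the second sum, at 76.7, 75.1 and 82.1 CPM, varied far less than the 19.9 CPM that counting alone would give.

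**Figure D3:**
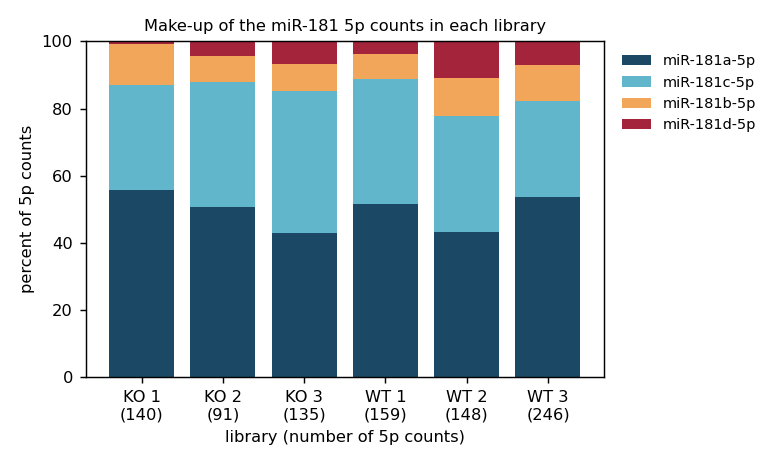
Share of each 5p arm in the miR-181 5p counts of each library, in percent; the number of 5p counts stands in brackets under each bar. In every library miR-181a-5p and miR-181c-5p together make up between 77.7% and 88.7%.

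The 3p arms were rare except that of miR-181c. The arm miR-181c-3p held 74 of the 101 counts on 3p arms. It was at 59.6, 47.8 and 36.9 CPM in KO, from 14, 7 and 9 counts, and at 61.2, 40.8 and 102 in WT, from 11, 8 and 25 counts. WT replicate 3 stood above the other libraries, which overlapped. The fitted log2 difference was -0.53 ± 0.41 (SE), and it was -0.07 without WT replicate 3 and 0.12 without both replicate 3 libraries.

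The ratio of the 3p to the 5p arm was higher for miR-181c than for miR-181a in each of the 6 libraries. There were 22.7 ± 8.23 counts of miR-181c-3p per 100 counts of miR-181c-5p in KO and 23.3 ± 10.8 in WT (SD, n = 3). For miR-181a, both 3p arms together had 7.78 ± 4.56 counts per 100 counts of the 5p arm in KO and 3.17 ± 1.68 in WT (SD, n = 3), from 21 counts in all. Both ratios rest on the uncertain split between miR-181a-5p and miR-181c-5p. The arms miR-181c-3p and miR-181a-1-3p also differ by only 2 bases.

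Of the 3p products that tell the loci of miR-181a and miR-181b apart, miR-181a-1-3p was found in 6 of 6 libraries, with 4, 4 and 3 counts among the KO libraries and 4, 2 and 2 among the WT ones. The product of the other locus, miR-181a-2-3p, had 2 counts, both in KO replicate 2. The arm miR-181b-1-3p had 4 counts in 3 libraries and miR-181d-3p had 2 counts in 2 libraries. The arm miR-181b-2-3p had 0 counts in all 6 libraries, which allows a level of up to 2.41 CPM over all libraries together. No difference between genotypes was detectable in these 5 arms at this depth.

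Of the 10 members, 4 passed the filter on low counts (miR-181a-5p, miR-181b-5p, miR-181c-5p and miR-181c-3p), and the fitted difference was below 0 in 4 of these 4, with a median of -0.56 beside -0.12 over all miRNAs tested. In the edgeR fit across the whole table, 1 of the 4, miR-181a-5p, had an adjusted p under 0.05, where the same was true of 22.0% of miRNAs (14.7% lower and 7.34% higher in KO) and of 84.8% of all RNAs tested. For 1 of the 4, miR-181c-5p, every KO library was below every WT library, and 23.9% of miRNAs were lower in KO without overlap. Both shares describe a contrast that was in view when the family was picked, and nothing is read from them. As a limit of that count, miR-181a-5p was not past the threshold without WT replicate 3, without WT replicate 1, without KO replicate 3, without both replicate 3 libraries, and with TMM factors of the miRNAs. A further limit is that the adjustment ran over all 26032 RNAs. With 84.8% of them past the threshold, an adjusted p lay close to the unadjusted one, here and for the markers below. Adjustment over the miRNAs alone was not run. By the unadjusted p-values it would leave fewer past the threshold, and miR-181a-5p and miR-145a-5p would not be among them.

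**Figure D4:**
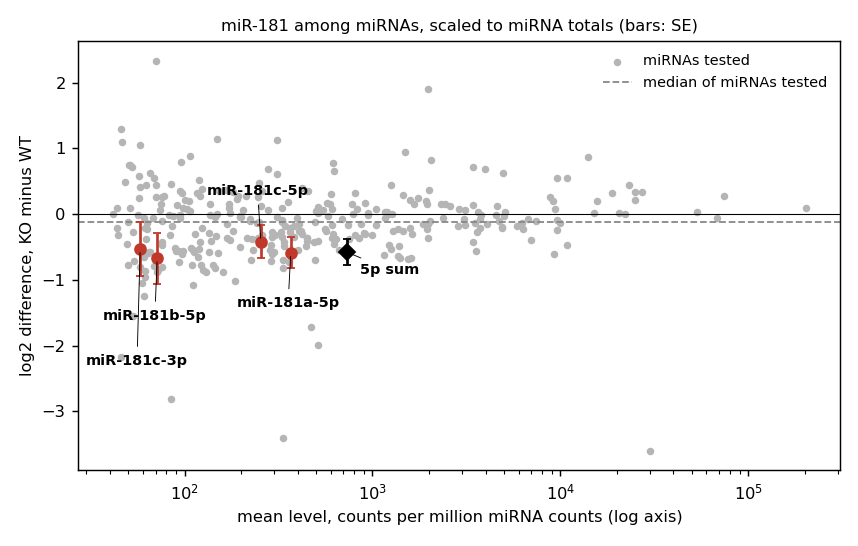
Log2 difference between KO and WT against the mean level in CPM of miRNA counts (log axis) for the 327 miRNAs tested (grey), the 4 fitted miR-181 arms (red) and their 5p sum (black diamond), with SE bars; the dashed line is the median of the miRNAs. The miR-181 points lie between -0.67 and -0.42, below the median of -0.12 and inside the cloud of other miRNAs.

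The miRNAs most like the summed 5p arms across libraries were also lower in KO on the scale of miRNA totals. Over the 6 libraries, and among 248 other miRNAs with a mean of at least 100 CPM, the highest Pearson correlations of log2 levels were those of miR-470-3p (0.98), miR-5099 (0.95), miR-143-3p (0.95), miR-148a-3p (0.94) and miR-99a-5p (0.94). The 6 libraries fall into 2 genotypes and share their depth with every miRNA, and these values were picked as the highest, so they are a description. The most correlated of them, miR-470-3p, was at 1018, 1017 and 1030 CPM in KO replicates 1 to 3 and at 1452, 1199 and 1593 in WT. The most abundant, miR-143-3p, was at 7343 ± 346 CPM in KO and 11125 ± 1297 in WT (SD, n = 3). No cell of origin is read from these 5 miRNAs.

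Markers of other cells that the preparation could hold were measured beside the family. All 5 tested mesenchymal and peritubular miRNAs fell relative to the miRNA total (median log2 difference -0.69), among them miR-143-3p (-0.60, edgeR adjusted p = 0.000794), miR-145a-5p (-0.47, edgeR adjusted p = 0.0183) and miR-214-3p (-0.72, edgeR adjusted p = 0.00384). Their summed level was between 15087 and 19856 CPM in KO and between 21431 and 30574 in WT, without overlap, as for the miR-181 5p sum, and 0 of the 5 were at zero. The most abundant of them, miR-145a-5p, overlapped between genotypes, at 9117 ± 2555 CPM in KO and 12671 ± 3762 in WT (SD, n = 3). Among all miRNAs tested, 14.7% were past the threshold and lower in KO, and 23.9% were lower without overlap. Their part in the miR-181 difference was not tested.

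Leukocytes are the cells in which miR-181 is best known, and their markers changed in both directions. Of the 7 tested, 1 rose (miR-155-5p, log2 difference 1.29, edgeR adjusted p = 0.00717), 1 fell (miR-342-3p, -0.62, edgeR adjusted p = 0.00227) and 5 did not pass, with a median of 0.32. Here miR-155-5p falls outside the rule for named miRNAs and was chosen after its value was seen. Their summed level was between 2922 and 3387 CPM in KO and between 3026 and 3581 in WT, overlapping, with 0 of the 7 at zero. The part of leukocytes in the miR-181 difference was not tested.

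Of the 3 erythroid markers, miR-451a was tested and fell (log2 difference -1.25, edgeR adjusted p = 0.00498), and the list summed to between 38.3 and 54.6 CPM in KO and between 83.4 and 122 in WT. None of the 2 endothelial, 2 Sertoli and gonadal somatic or 3 spermatogonial miRNAs passed, with median log2 differences of 0.04, -0.20 and -0.23. Of the 6 germ cell arms of miR-34b, miR-34c and miR-449, 3 rose (miR-34b-3p, miR-34c-3p and miR-449a-5p, at 0.55, 0.71 and 0.44) and 0 fell, with a median of 0.36; miR-34b-3p and miR-34c-3p were likewise named after their values were seen. The list does not hold every arm of these families: outside it, and also named after the values were seen, miR-449b fell (log2 difference -0.70, edgeR adjusted p = 0.0027), miR-449a-3p rose (1.05, edgeR adjusted p = 0.0164) and miR-449c-3p did not pass (-0.02). In all, 4 of the 26 tested markers rose and 7 fell, where 7.34% of all miRNAs tested rose and 14.7% fell. On the scale of the whole table, with TMM factors, 25 of the 26 rose and 0 fell, where 319 of all 327 miRNAs rose and 2 fell.

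**Figure D5:**
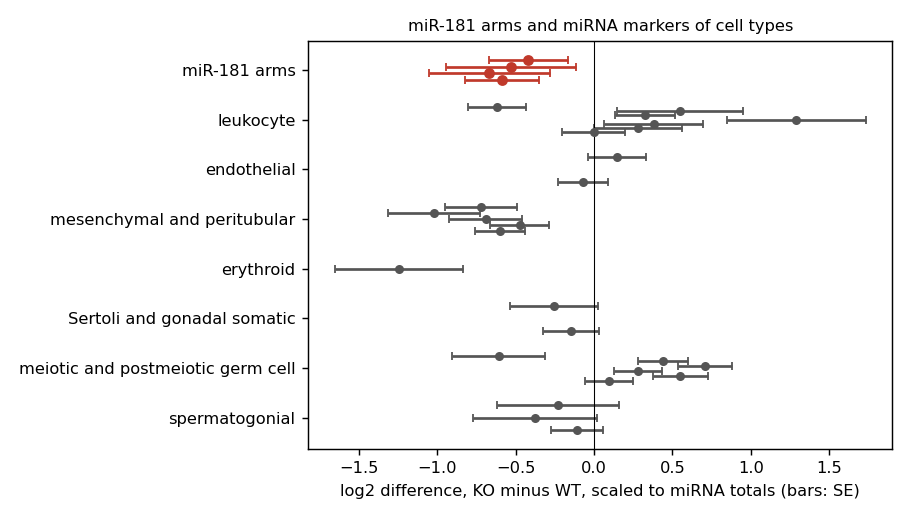
Log2 differences between KO and WT, scaled to miRNA totals, of the 4 fitted miR-181 arms (red) and of each tested marker miRNA by cell type (grey), with SE bars. The miR-181 arms lie between -0.67 and -0.42, the mesenchymal and peritubular markers between -1.02 and -0.47, and the leukocyte markers between -0.62 and 1.29.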

How the data were processed

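Small RNAs of 3 Miwi KO and 3 WT round spermatid preparations were analysed. The authors deposited raw read counts for each indexed RNA, made with featureCounts v1.5.0-p2 per the file headers. The submitters' processing notes also name mm9, cutadapt and DESeq2, and no aligner is given in the sources used here. Entries are 20 nt longer than the mature RNA in 1611 of 1618 miRNAs matched to RefSeq, and 8 of the 10 miR-181 entries matched the RefSeq length after subtracting them. Hairpins were sought in the piRNA table at GRCm38 positions, since 8 of 11 other miRNA genes with at least 1000 counts in both tables agreed there within 1.2 times.

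From the deposited counts, the quasi-likelihood model of edgeR 4.0.16 (R 4.3.3) was fitted to 26032 RNAs that passed filterByExpr (minimum count 10, minimum total 15), with the miRNA total as library size and no block. P-values were two-sided and Benjamini-Hochberg adjusted over all of these, with 0.05 as the threshold. The SE of a log2 difference is its size divided by the square root of edgeR's F. The 5p sum was fitted in place of its members. Intervals are exact binomial at 95%, and a count of 0 allows 3 counts. Reads carry no molecular identifiers, so they may not be independent molecules. Python 3.11.15 and scipy 1.17.1 were used, and the fit was tested on simulated data. Piwil1 mRNA, which would check the genotypes, was not analysed here. Replicate libraries differed by more than counting noise in each of the 6 pairs within a genotype (chi-square per degree of freedom from 4.96 to 15.5).

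Named RNAs were the members, the 5 miRNAs most correlated with the 5p sum (log2 of the level plus 1), the 3 nearest in level on each side and up to 3 per marker list. Alternatives were DESeq2 1.42.0, other scalings and filters, the replicate block and left-out libraries. The members and lists were chosen with earlier results of these data known.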

Additional observations from a re-analysis of the deposited data

How the results depend on the processing

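Under the 13 alternatives scaled to miRNAs, the log2 difference of the miR-181 5p sum stayed between -0.68 and -0.43, and it was -0.58 with the replicate block. It reversed to 1.45, 1.18 and 1.39 with whole-table TMM factors, the whole-table total and DESeq2's own size factors. Under those scalings in the same order, miR-181a-5p stood at 1.45, 1.17 and 1.39, miR-181b-5p at 1.36, 1.08 and 1.30, miR-181c-3p at 1.498, 1.22 and 1.47, and miR-181c-5p at 1.61, 1.33 and 1.54. The sign in these alternatives depends on the scale, as it does with miRNA totals. Which scale tracks the level per cell was not tested. Without both replicate 3 libraries miR-181c-3p reversed to 0.12, and miR-181a-5p moved to -0.26 and miR-181b-5p to -0.30 (the cause was not tested). The number of members past the threshold, 1, became 4, 4 and 4 with the 3 whole-table scalings, where 321, 317 and 319 of all 327 miRNAs were past it too, 2 without a filter (miR-181d-5p joined, since it was then tested), 0 with TMM factors of the miRNAs and 0 without both replicate 3 libraries, and it ranged from 0 to 2 when single libraries were left out. The number of markers past the threshold, 11, became 25 with each whole-table scaling. The miRNAs past the threshold split into 24 higher and 48 lower, into 35 and 30 with TMM factors of the miRNAs, and into 319 and 2, 314 and 3, and 317 and 2 with the whole-table scalings. Whether replicate numbers pair the libraries was not settled. Over all RNAs, same-numbered libraries had deviations correlated at 0.02, 0.06 and 0.10, each library correlating best with its own number. Over the miRNAs alone the same pairs stood at -0.14, 0.22 and 0.12. The block moved the number of miRNAs past the threshold from 72 to 86. At 91 to 246 5p counts per library, counting error limits every single arm.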
